A study of Mus musculus with 7 samples.

Results

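The genes described here encode 9 proteins of the complement system: the proteases C1ra and C1s1, the components C2, C3, C4b, C6 and C7, complement factor B (Cfb) and the receptor C5ar1. They were taken by symbol from a table of 22173 genes, in which all 9 were found. RNA had been sequenced from 7 mouse spleen libraries, 3 from control spleens given the buffer PBS and 4 from spleens into which a biomaterial named sHA-X had been injected several times to remodel them. Both groups then received hepatocytes, the main cells of the liver, in the spleen, and the spleens were collected 30 days later. The PBS group is thus a vehicle control that also carries transplanted cells, and no spleen without hepatocytes was analysed here. Strain, age and sex of the mice, and what the letters sHA-X stand for, are not given in the sources used here. Values are FPKM (fragments per kilobase of transcript, scaled to the size of the library). A pair of values joined by ± is a mean with its SD over the 3 PBS or the 4 sHA-X libraries.

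Complement is a cascade of plasma proteins that marks cells and particles for uptake and can pierce membranes. In the classical pathway the C1 complex, made of C1q with the proteases C1r and C1s, cuts C4 and C2, whose fragments join into an enzyme that cuts C3. In the alternative pathway factor B takes the place of C2. Cutting of C5 then starts assembly of the membrane attack complex from C6, C7, C8 and C9, and releases C5a, a peptide that attracts myeloid cells through its receptor C5ar1. Hepatocytes make most complement proteins of plasma, whereas macrophages and fibroblasts make many of them locally and C1q comes mainly from macrophages. The study set the groups side by side for genes of liver function, and the same contrast is used here for complement.

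Of the 9 genes, 8 rose in the sHA-X spleens and none fell (adjusted p under 0.05 by limma on log2(FPKM + 1)). Over all 11920 genes tested the share called higher was 9.30% and the share called lower 5.03%. None of the 9 was lower at an unadjusted p under 0.05 or by voom on recovered reads either, and voom called the same number, 8, higher. Every sHA-X library lay above every PBS library for these 8 genes, as it did for 17.2% of all tested genes. The median log2 change of the 9 genes was 0.57, against 0.03 for all tested genes. The rises ran from 1.33-fold for C3 to 25.6-fold for C7 by the ratio of means, and C2 did not pass. C7 reached the mean of 1 FPKM asked of a tested gene only through its sHA-X values. In whole spleen, more cells of a type and more RNA per cell cannot be told apart.

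**Figure D1:**
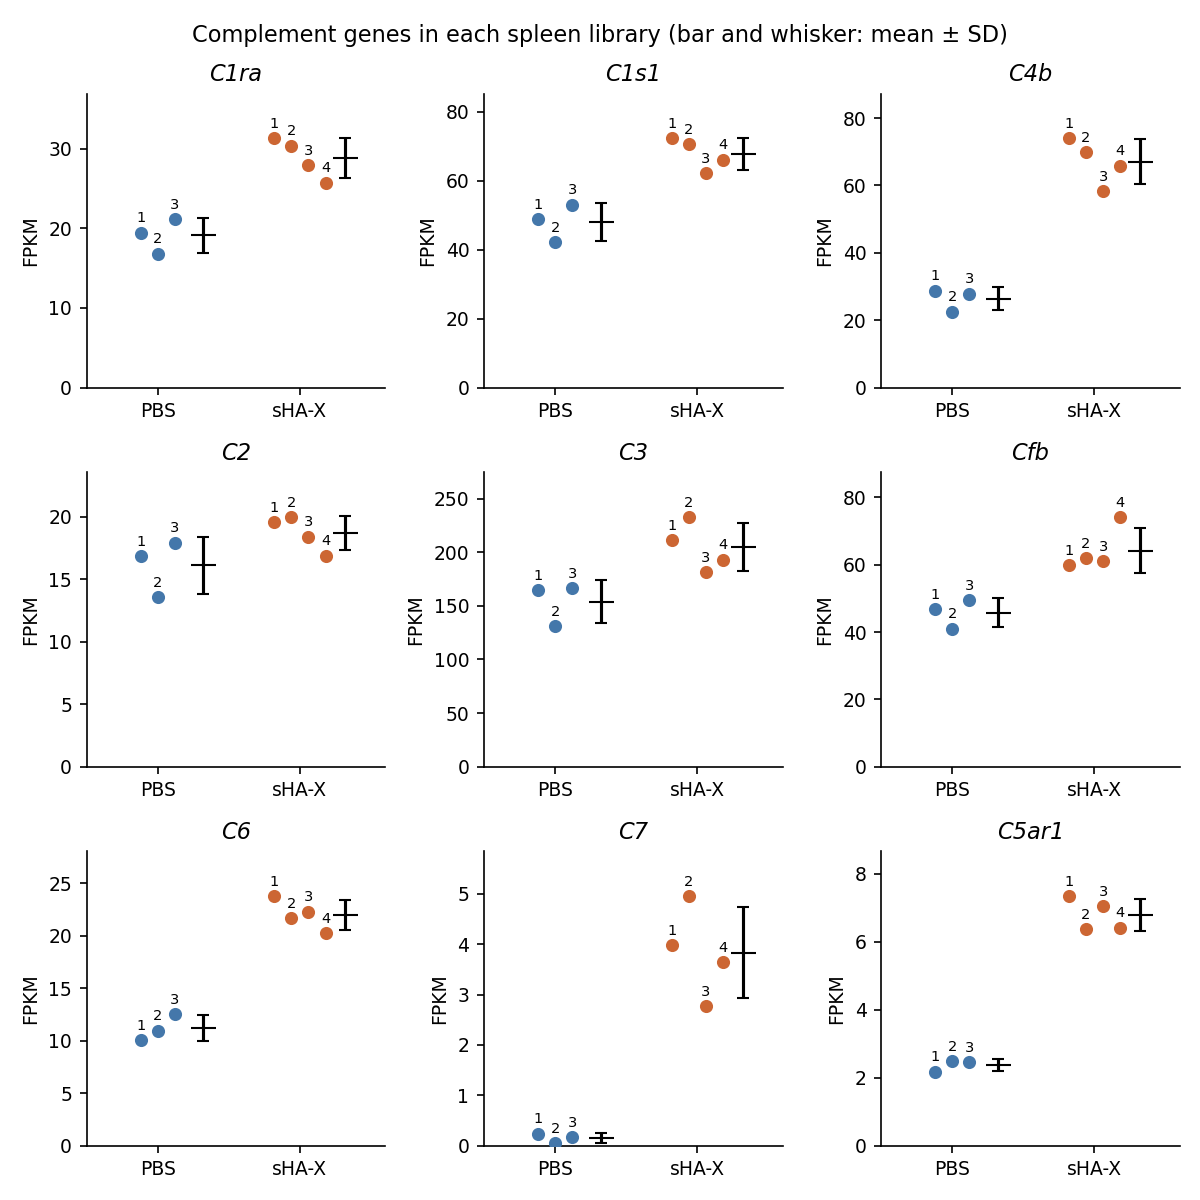
FPKM (vertical axes, from 0) of the 9 complement genes in each library, with PBS in blue, sHA-X in orange, the replicate number above each point, and a bar and whisker for the mean ± SD. The groups overlap for C2 and for none of the other 8 genes, and C7 goes from at most 0.239 FPKM in PBS to at least 2.77 FPKM for sHA-X.

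Libraries differed in traces of other tissues. A list of 10 pancreatic acinar genes summed to 981.9 FPKM in PBS replicate 2 and to between 15.6 and 35.2 FPKM in the other 6 libraries. In sHA-X replicate 2, 10 skeletal muscle genes summed to 232.9 FPKM, against 8.29 to 16.4 FPKM elsewhere. Hepatocyte genes were high in sHA-X replicates 3 and 4, where albumin (Alb) reached 325.3 and 370.4 FPKM. The spleen's own B cell markers were present throughout, with the B cell receptor gene Cd79a between 414.0 and 700.5 FPKM. Without both second libraries 5 of the 9 genes were called higher, and C1s1 (adjusted p = 0.056 by limma), C3 (0.17) and Cfb (0.071) were not. Depth was between 29543961 and 37142218 recovered reads per library.

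C1ra and C1s1, the proteases that act with C1q, both rose. C1ra (NCBI gene 50909, chromosome 6, 124512621 to 124523440, GRCm38) was 19.5, 16.8 and 21.2 FPKM for PBS (values follow the replicate numbers throughout) against 31.3, 30.4, 27.9 and 25.7 FPKM for sHA-X. The lowest sHA-X library stood above the highest PBS library, with group values of 19.1 ± 2.21 and 28.8 ± 2.51 FPKM. The log2 change was 0.57 (SE 0.094; limma adjusted p = 0.0066). C1s1 (NCBI gene 50908, chromosome 6, 124530344 to 124542392) was 48.8, 42.2 and 52.9 FPKM for PBS against 72.2, 70.5, 62.1 and 66.0 FPKM for sHA-X. These groups did not overlap either, and the log2 change was 0.49 (SE 0.088; limma adjusted p = 0.0091). Among PBS libraries both genes were lowest in replicate 2, the library with the pancreatic genes, as were C2, C3, C4b, C7 and Cfb, and the part of that library's makeup in these values was not tested.

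C1ra and C1s1 lie 6904 bases apart, each with a close copy nearby. Of the 50-base windows of the C1ra transcript, 48.0% also occur in C1rb, and 24.3% of those of C1s1 occur in C1s2. Reads that lie wholly within these stretches cannot be assigned to 1 gene, so the split between copies is uncertain. As counted, C1rb was at most 0.188 FPKM and C1s2 at most 0.282 FPKM in any library, under the filter of a mean of 1 FPKM. An antisense transcript, Gm16567, covers 18.4% of the exonic bases of C1s1, and the sources used here do not give whether the counting used strand. The ratio of C1s1 to C1ra was 2.51 ± 0.0058 in PBS, and 2.31, 2.32, 2.23 and 2.57 in sHA-X replicates 1 to 4. This ratio did not differ between groups beyond its spread (exact permutation test, two-sided, p = 0.14, and 0.14 adjusted over 4 ratios).

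The genes of C1q, the recognition subunit of the same complex, also rose, with larger estimates. C1qa went from 206.2 ± 27.9 to 415.9 ± 27.7 FPKM (log2 change 1.01), C1qb from 209.7 ± 18.2 to 439.3 ± 20.4 FPKM (1.07) and C1qc from 199.8 ± 25.1 to 393.6 ± 15.4 FPKM (0.98). Their adjusted p by limma was at most 0.00074. The intervals of their log2 changes lay above the upper bound for C1s1 (0.69), and only barely above that for C1ra. The lower bound for C1qc was 0.787 and the upper bound for C1ra 0.783. Intervals from other settings were not compared. The difference between these genes was not itself tested. C1rl, a C1r-like protease gene beside C1ra, was 1.42 ± 0.088 and 2.34 ± 0.48 FPKM, a call (adjusted p = 0.038) that was lost in 6 of the 7 fits with 1 library left out.

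C4b, the component that C1s cuts first, rose 2.54-fold. C4b (NCBI gene 12268, chromosome 17, 34728139 to 34743902) was 28.8, 22.5 and 27.9 FPKM for PBS against 74.0, 69.9, 58.3 and 65.8 FPKM for sHA-X. The lowest sHA-X library was above 2 times the highest PBS library. The log2 change was 1.31 (SE 0.11; limma adjusted p = 0.00042), from 3937 to 5113 reads per PBS library and 10684 to 13444 per sHA-X library. The neighbouring copy C4a holds 35.2% of the 50-base windows of the C4b transcript and was not analysed here, so the value of C4b may include its reads.

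C2, which pairs with C4b in the classical C3 convertase, did not pass. C2 (NCBI gene 12263, chromosome 17, 34862602 to 34882100) was 16.9, 13.5 and 17.9 FPKM for PBS against 19.5, 19.9, 18.4 and 16.9 FPKM for sHA-X. The groups overlapped, since PBS replicate 3 stood above sHA-X replicate 4. The log2 change was 0.21, with a 95% interval from -0.02 to 0.44 (adjusted p = 0.20 by limma), an interval that holds both no change and a rise as large as the estimate for C3. The estimate was 0.10 without PBS replicate 2 and 0.07 without both second libraries.

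Cfb, the alternative-pathway counterpart of C2, rose. Cfb (NCBI gene 14962, chromosome 17, 34856374 to 34862514) was 46.7, 40.9 and 49.5 FPKM for PBS against 59.8, 62.0, 61.0 and 74.0 FPKM for sHA-X. The groups did not overlap, sHA-X replicate 4 stood well above the other 3, and the log2 change was 0.48 (SE 0.094; limma adjusted p = 0.013). C2 and Cfb lie 88 bases apart on the minus strand, and the annotated gene Gm20547 runs through both, sharing 79.5% of the exonic bases of Cfb and 42.8% of those of C2. The sources used here do not give which of these genes such reads were assigned to. The ratio of Cfb to C2 was 2.77, 3.02 and 2.77 for PBS against 3.06, 3.11, 3.31 and 4.39 for sHA-X. The groups touched without overlapping, and sHA-X replicate 4 stood apart (two-sided exact permutation p = 0.11, and 0.14 adjusted over 4 ratios).

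C3, on which all complement pathways converge, was the most abundant of the 9 in both groups. C3 (NCBI gene 12266, chromosome 17, 57203967 to 57228136) was 164.4, 131.1 and 166.6 FPKM for PBS against 211.4, 232.6, 181.3 and 193.1 FPKM for sHA-X. All sHA-X libraries stood above all PBS libraries, by a small margin between sHA-X replicate 3 and PBS replicate 3. The log2 change was 0.41 (SE 0.11; limma adjusted p = 0.044), close to the threshold. Leaving out 1 library lost the call in 5 of 7 fits (limma adjusted p up to 0.11), and it was kept only without PBS replicate 3 or sHA-X replicate 3. Upper-quartile scaling (adjusted p = 0.065), no filter on low values (0.076) and limma with neither trend nor robust variance (0.059) also lost it, with the same direction each time.

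Relative to C3, C4b was higher in every sHA-X library. The ratio of C4b to C3 was 0.175, 0.172 and 0.168 for PBS against 0.350, 0.301, 0.322 and 0.341 for sHA-X. Each sHA-X ratio was above each PBS ratio (two-sided exact permutation p = 0.0286, the smallest this design can give, and 0.057 adjusted over 4 ratios). The pairs were chosen by role after the values were known. By level in FPKM, which is per length, the PBS order was C3, C1s1, Cfb, C4b, C1ra, C2, C6, C5ar1 and C7. This order held within each of the 3 PBS libraries. In sHA-X, C1s1 (67.7 ± 4.57), C4b (67.0 ± 6.66) and Cfb (64.2 ± 6.62 FPKM) changed order from library to library, and C6 (22.0 ± 1.46 FPKM) stood above C2 (18.7 ± 1.38 FPKM) in each of the 4.

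The membrane attack genes C6 and C7 both rose, C7 from near 0. C6 (NCBI gene 12274, chromosome 15, 4727067 to 4804045) was 10.1, 10.9 and 12.5 FPKM for PBS against 23.7, 21.7, 22.3 and 20.2 FPKM for sHA-X. Its groups were far apart, with a log2 change of 0.92 (SE 0.083; limma adjusted p = 0.00065). C7 (NCBI gene 109828, chromosome 15, 4987750 to 5063773) was 0.239, 0.0466 and 0.163 FPKM for PBS against 3.97, 4.95, 2.77 and 3.64 FPKM for sHA-X. These values rest on 31, 6 and 22 reads in PBS and on 511, 591, 373 and 547 reads in sHA-X. The log2 change on log2(FPKM + 1) was 2.06 (SE 0.15; limma adjusted p = 0.00031), which understates the change of so low a gene. With a pseudocount of 0.1 it was 4.03, and by voom on the recovered reads 4.87. As C7 passed the filter only through the group where it was high, its call is conditional on that rise. With no filter on low values its adjusted p was 0.0016 by limma. C7, C4b and C5ar1 were past a log2 change of 1, and 1.16% of all tested genes were called higher and past that size.

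C6 and C7 both lie on chromosome 15. C7 was 0.0238, 0.0043 and 0.013 times C6 for PBS against 0.168, 0.228, 0.124 and 0.18 times C6 for sHA-X. The two-sided exact permutation p was 0.0286, and 0.057 adjusted over 4 ratios. That p is no further support for a rise of C7. C7 passed the filter only through its sHA-X values, and the pair was chosen after the values were known. Genes of the other proteins of the complex differed between the sHA-X libraries. C9, which forms the ring of the pore, was 0, 0.0553 and 0.0132 FPKM for PBS against 0, 0.0596, 4.10 and 5.84 FPKM for sHA-X (adjusted p = 0.37 by limma). C8b was 0, 0.0978 and 0 FPKM for PBS against 0, 0.151, 3.11 and 3.74 FPKM for sHA-X (adjusted p = 0.34). Hc, which encodes C5, was at most 0.0393 FPKM for PBS against 0.0956, 0.115, 1.95 and 2.54 FPKM for sHA-X, under the filter.

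**Figure D2:**
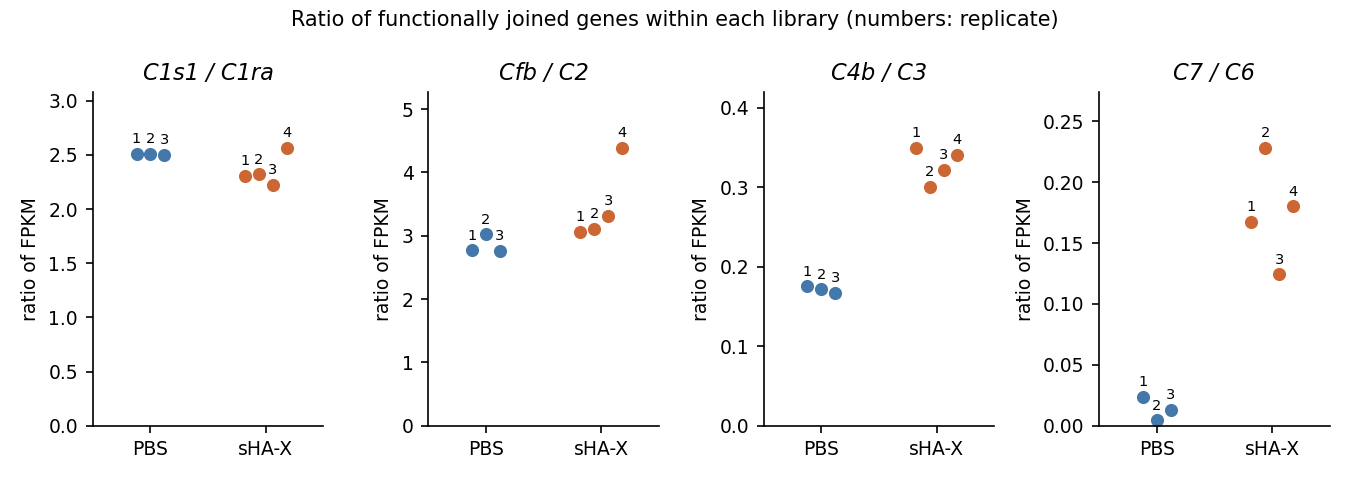
Ratio of FPKM within each library (vertical axes, from 0) for 4 pairs of genes joined by role, with PBS in blue, sHA-X in orange and the replicate number above each point. C4b over C3 and C7 over C6 leave a wide gap between the groups, Cfb over C2 a narrow one (3.02 against 3.06), and C1s1 over C1ra overlaps.

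Promoter sequences are shown for C3, the most abundant of the 9 genes, and for C7, which had the highest ratio between groups, to set the letters before their starts side by side. They are the 250 bases before the annotated start, from RefSeq on GRCm38.p6, read 5′ to 3′ on the gene's strand, with motif matches in capitals. The windows are chr17:57228137-57228386 (minus strand) for C3 and chr15:5063774-5064023 (minus strand) for C7.
C3: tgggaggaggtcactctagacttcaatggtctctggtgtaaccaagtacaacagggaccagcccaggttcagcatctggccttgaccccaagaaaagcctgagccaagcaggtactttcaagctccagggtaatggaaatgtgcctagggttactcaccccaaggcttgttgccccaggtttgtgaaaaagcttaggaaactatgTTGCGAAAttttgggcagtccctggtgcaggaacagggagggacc
C7: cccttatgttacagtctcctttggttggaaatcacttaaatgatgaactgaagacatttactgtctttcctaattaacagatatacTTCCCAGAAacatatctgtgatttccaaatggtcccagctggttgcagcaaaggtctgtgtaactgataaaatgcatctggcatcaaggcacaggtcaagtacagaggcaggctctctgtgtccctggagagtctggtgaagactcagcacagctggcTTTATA
Motifs were searched on both strands, and windows were found for 6 of the 9 genes. C3 holds 1 match to TTGCNNAA (C/EBP), 45 to 38 bases before the start, and C7 holds 1 match to TTCNNNGAA (STAT), 164 to 156 bases before it. C7 also holds TATAAA on the opposite strand, directly before the start. Over all 32851 promoter windows of this length, 9.56% hold the C/EBP letters, 7.02% the STAT letters and 12.4% TATAAA. The ISRE motif (in 2.98% of windows), the NF-kappa-B motif (1.21%) and TGANTCA (AP-1, 6.75%) had no match in either window shown.

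C5ar1, the receptor for C5a on neutrophils, monocytes and macrophages, rose. C5ar1 (NCBI gene 12273, chromosome 7, 16246743 to 16259540) was 2.18, 2.48 and 2.45 FPKM for PBS against 7.34, 6.36, 7.05 and 6.42 FPKM for sHA-X. The spread within each group was small beside the gap between them, and the ratio of means was 2.86. The log2 change was 1.21 (SE 0.077; limma adjusted p = 0.00016), from 180 to 211 reads per PBS library and 485 to 615 per sHA-X library. Its neighbour C5ar2, a second C5a receptor that lies 2589 bases away, was 1.23 ± 0.16 and 2.08 ± 0.060 FPKM (log2 change 0.47, adjusted p = 0.0073). C3ar1, the receptor for the C3 fragment C3a, was 0.296, 0.189 and 0.431 FPKM for PBS against 3.10, 1.31, 2.59 and 2.01 FPKM for sHA-X (log2 change 1.29, adjusted p = 0.0039). It passed the filter only through its sHA-X values.

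Among 46 other complement genes listed by role, 45 were in the table and 29 passed the filter of a mean of 1 FPKM over the 7 libraries. Of these 29, 10 rose (34.5%, against 9.30% of all tested genes), 1 fell and 18 did not pass, with a median log2 change of 0.46. The other 16 were under the filter, which a gene near 0 in PBS passes only through its sHA-X values. Among the 29, C3ar1 and Vsig4, both called higher, passed it that way. So did C8b, C8g, C9, C4bp, Cfi and Vtn, which were not called. The log2 changes of these genes ran from 0.89 (C8g) to 2.45 (Vtn). Neither the count of rises nor the median is free of that selection. By role, 4 of 6 initiation genes, 2 of 11 regulators and 4 of 7 receptors rose. Neither the 2 convertase genes (Cfd and Cfp) nor the 3 membrane attack genes (C8b, C8g and C9) passed by limma or by voom, and of these 5 Cfp alone had an unadjusted p under 0.05 (0.017 by limma).

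Among the regulators, Serping1 rose and Cd55 fell. Serping1, the inhibitor of C1r and C1s, was 68.4 ± 8.66 and 128.5 ± 17.7 FPKM (log2 change 0.90, limma adjusted p = 0.0033). Cd55, which speeds the decay of C3 convertases on cell surfaces, fell from 24.5 ± 0.67 to 17.9 ± 1.39 FPKM (log2 change -0.43, adjusted p = 0.0057). Cr1l, another membrane inhibitor in rodents, was 48.1 ± 0.66 and 48.4 ± 4.31 FPKM (95% interval of the log2 change from -0.16 to 0.17). Clu, which encodes clusterin, was 232.0 ± 33.8 and 236.7 ± 16.3 FPKM.

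Of the genes of receptors that bind C3 fragments, Itgam and Vsig4 were called higher, and Cr2 and Itgax were not called. Their changes were not compared with each other. Itgam, the alpha chain of complement receptor 3, was 15.2 ± 0.19 and 20.2 ± 1.76 FPKM (limma adjusted p = 0.010), and that call was lost without both second libraries (0.070). Vsig4, a macrophage receptor for C3b, was at most 0.585 FPKM for PBS against 1.99, 2.87, 4.27 and 7.82 FPKM for sHA-X (adjusted p = 0.029), a call lost in 5 of the 7 fits with 1 library left out. It too passed the filter only through its sHA-X values. Cr2, the receptor of B cells and follicular dendritic cells (listed with the regulators), was 49.9 ± 8.31 and 57.1 ± 6.57 FPKM and did not pass. Itgax, the alpha chain of complement receptor 4, was 20.8 ± 1.88 and 21.1 ± 2.45 FPKM and did not pass.

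**Figure D3:**
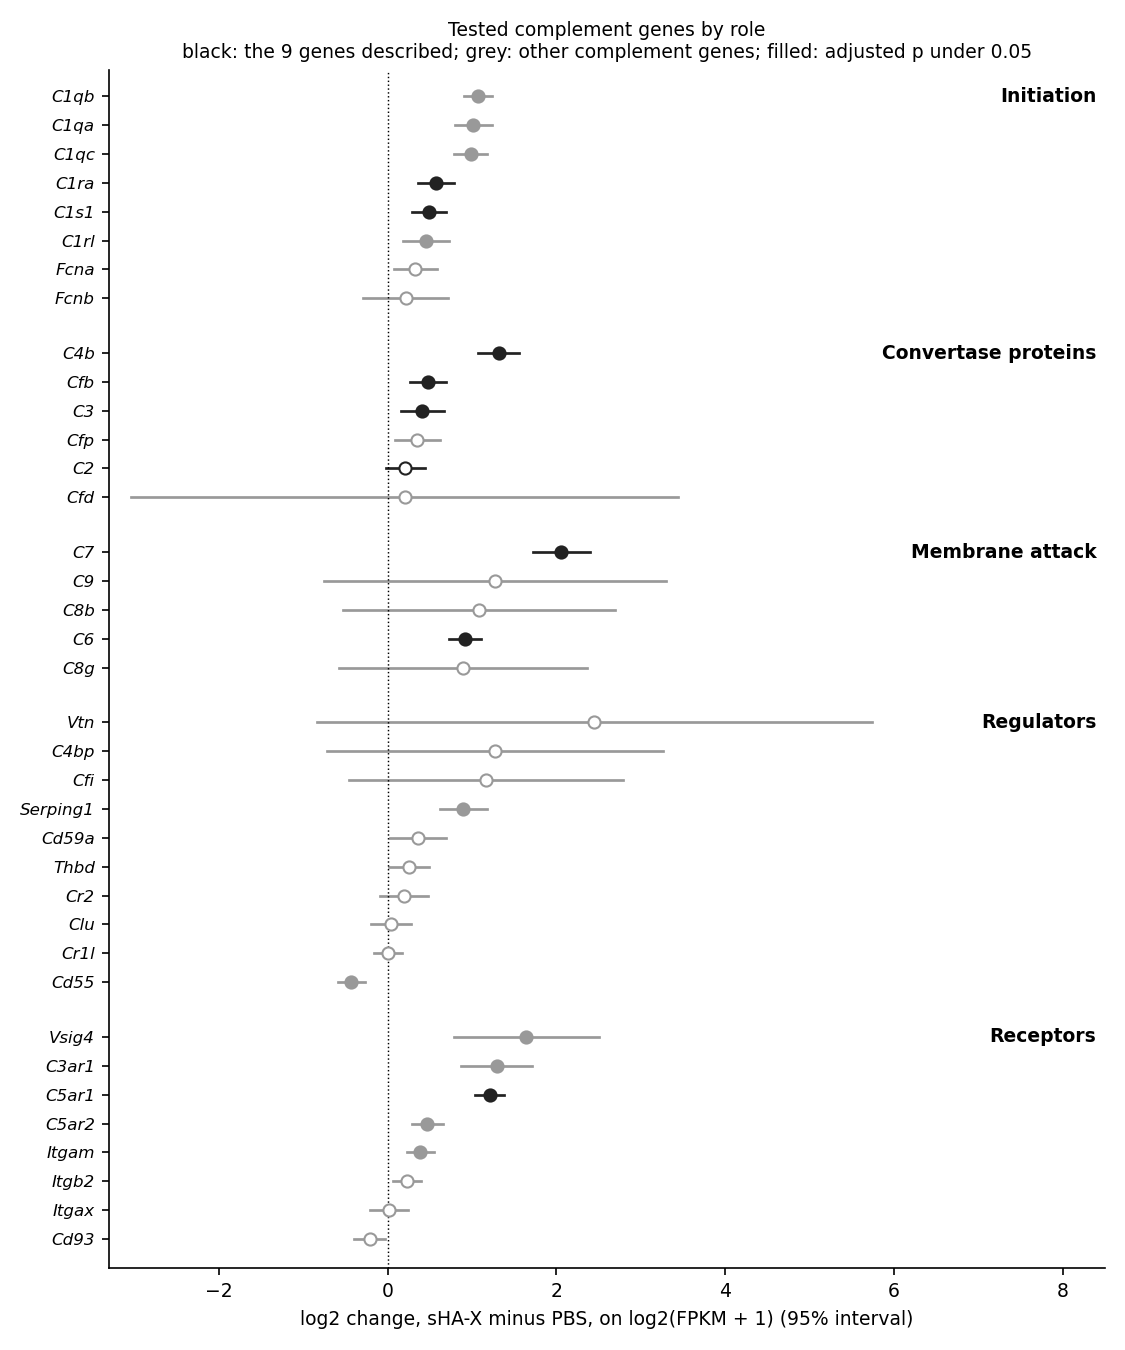
Log2 change (sHA-X minus PBS, on log2(FPKM + 1)) with its 95% interval for the tested complement genes, 1 left out, ordered by role, with the 9 genes described in black, the others in grey, and filled points at an adjusted p under 0.05. C7 stands highest of the 9 at 2.06, and wide intervals mark genes whose sHA-X libraries differ from each other, such as C9, Vtn and Cfd.

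Some complement genes followed albumin across the sHA-X libraries, and the 9 genes described did not. Albumin was 2.17, 8.49, 325.3 and 370.4 FPKM for sHA-X and at most 4.10 FPKM in PBS. Of the 45 other complement genes, 13 were more than 5 times higher in both sHA-X replicates 3 and 4 than in any other library, as were all 14 hepatocyte markers and none of the 9. The 13 were Mbl1, Mbl2, Colec10, Hc, C8a, C8b, C8g, C9, C4bp, Cfi, Vtn, Cpn1 and Cpn2. Outside sHA-X replicates 3 and 4 they were at most 0.657 FPKM. C3, C1s1, Cfb, C4b, C1ra, C2 and C6 had PBS means from 11.2 (C6) to 154.1 FPKM (C3), where an equal rise is a far smaller multiple. The 5-fold rule could therefore hardly pick these genes, whether or not hepatocyte RNA adds to their values. Vtn, which encodes vitronectin, was 0.269, 0.657, 23.2 and 22.3 FPKM for sHA-X and at most 0.126 FPKM in PBS. C4bp, an inhibitor of the classical convertase, was 0, 0.121, 4.63 and 5.35 FPKM for sHA-X. These genes were singled out after their values were seen, and no test was made. Among the 4 sHA-X libraries the highest value was at most 1.28 times the lowest for 8 of the 9 genes, and 1.79 times for C7. C1ra, C1s1, C2, C3, C4b, C6 and C7 had their lowest sHA-X value in replicate 3 or 4, C5ar1 in replicate 2 and Cfb in replicate 1, and Cfb had its highest in replicate 4.

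**Figure D4:**
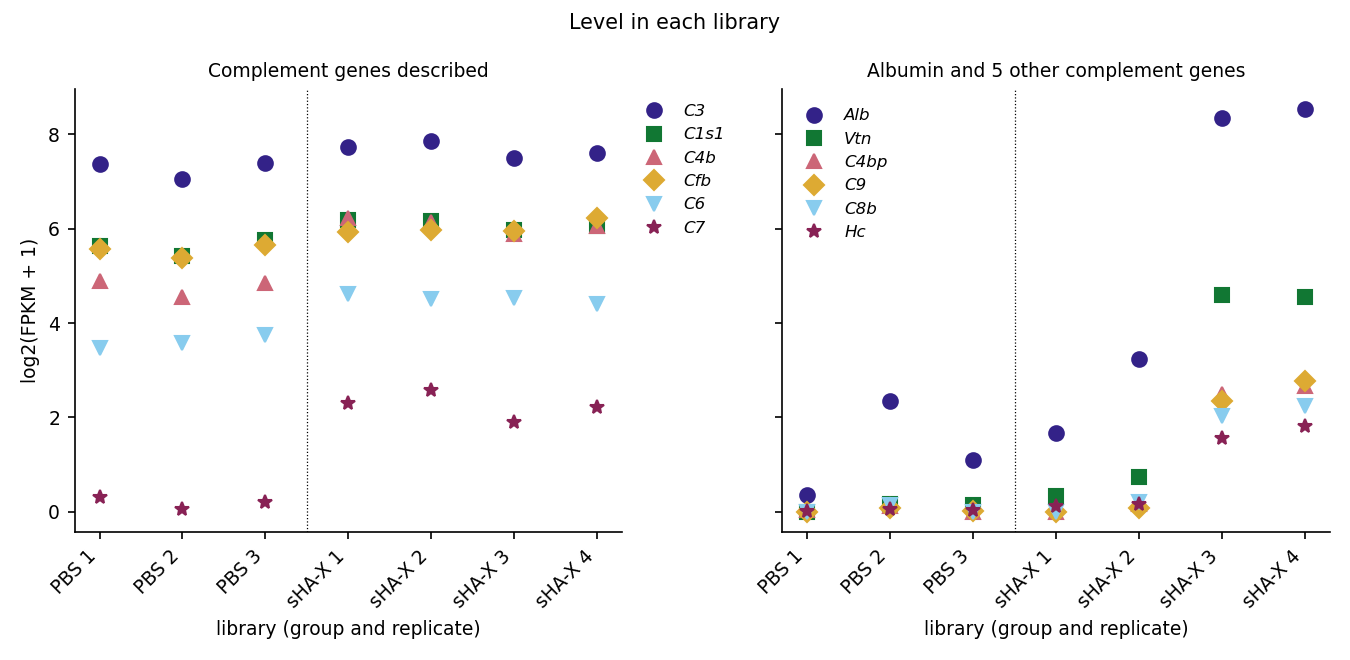
Level as log2(FPKM + 1) in each library (horizontal axis) for 6 of the genes described, left, and for albumin and 5 other complement genes, right; the dotted line parts PBS from sHA-X. For the genes on the left the highest of the 4 sHA-X values is at most 1.28 times the lowest, except C7 (1.79 times). Those on the right stand high in sHA-X replicates 3 and 4.

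Summed markers of macrophages, fibroblasts and monocytes with neutrophils were higher, and those of B cells lower, in every sHA-X library than in any PBS library, although no list passed 0.05 after adjustment, and the hepatocyte sums overlapped. The summed FPKM of 12 macrophage genes was 997.6 to 1321 in PBS and 1835 to 1939 in sHA-X, and 9 of the 12 were called higher. That of 12 fibroblast genes was 159.7 to 227.1 in PBS and 435.9 to 665.9 in sHA-X, with 10 of 12 called higher. Both sums had an exact permutation p of 0.0286 (two-sided, 0.095 adjusted over 10 lists). This is the smallest p the design can give, so missing 0.05 after adjustment is no sign that a list did not differ. The sum of 12 monocyte and neutrophil genes was 1907 to 2923 in PBS and 3181 to 4693 in sHA-X (exact permutation p = 0.057, 0.14 adjusted), with 5 of 12 called higher. The 8 B cell genes, 7 of them called lower, summed to 1708 to 2036 FPKM for PBS against 1144 to 1312 FPKM for sHA-X (exact permutation p = 0.0286, 0.095 adjusted). The hepatocyte sum was 3.11 to 10.4 FPKM for PBS against 8.92, 29.3, 975.0 and 1003 FPKM for sHA-X (exact permutation p = 0.20, 0.33 adjusted), and 0 of 13 tested hepatocyte genes were called by limma, 0 by voom and 0 at an unadjusted p under 0.05. In PBS replicate 1, Fgb, Fgg, Cyp3a11, Hpx, Tat and Cps1 were listed at 0. In sHA-X replicate 1, Tat and Cps1 were listed at 0, while Hpx (2.73 FPKM), Fgb (0.661 FPKM) and Ahsg (0.571 FPKM) stood above every PBS library. Fga did so only barely (0.3547 against 0.3543 FPKM in PBS replicate 2). The other hepatocyte genes did not, among them Alb (2.17 against 4.10 FPKM in PBS replicate 2), and Serpina1a (0.0969 FPKM) stood below every PBS library. The part of these cell types in the change of the 9 genes was not tested.

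**Figure D5:**
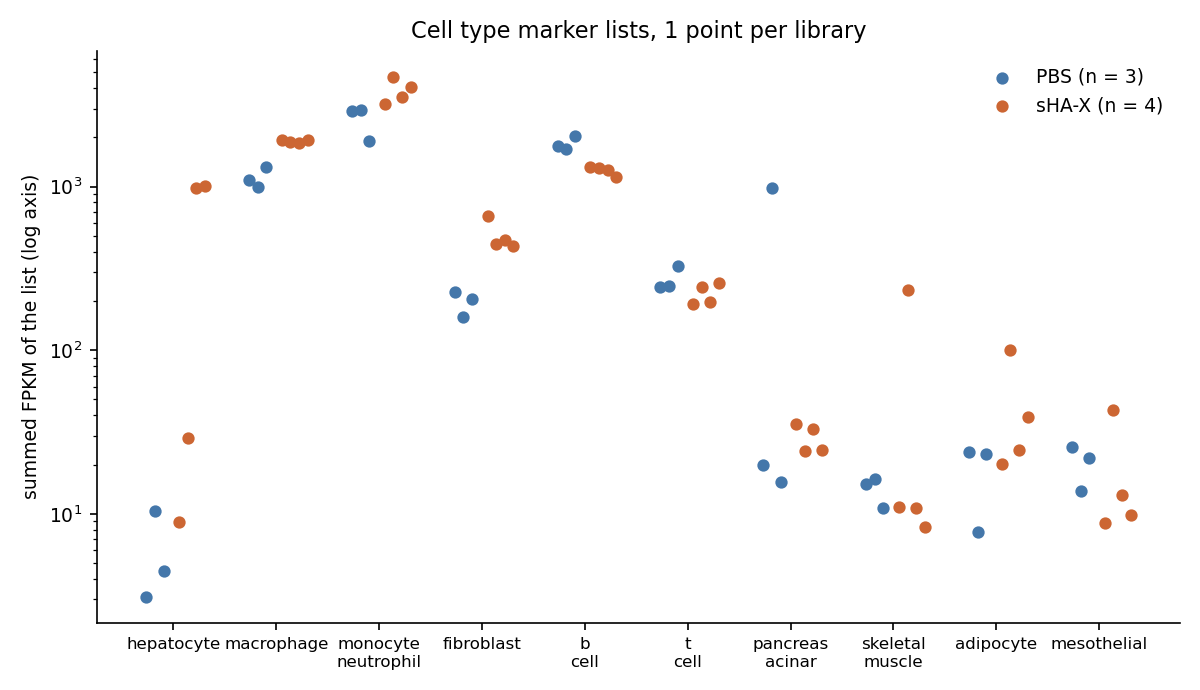
Summed FPKM of 10 cell type marker lists (log axis), 1 point per library, with PBS in blue and sHA-X in orange. The macrophage and fibroblast sums of the sHA-X libraries lie above those of PBS and the B cell sums below, while 2 libraries stand high for hepatocyte genes and 1 library each for pancreatic and muscle genes.

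The genes whose profile over the 7 libraries lay nearest to each of the 9 were found by the root mean square difference of log2(FPKM + 1) after centring, a description in which the group difference and library composition weigh together. Nearest to C1ra was Serpinh1, a collagen chaperone gene (0.035 log2 units, 51.2 FPKM for PBS against 75.1 in sHA-X by the mean), then Rcn3. Nearest to C1s1 were Cmklr1 (0.033) and Ptgfrn, to C2 Klf15 (0.033) and Tns2, and to C3 Abca8a (0.030) and Pam. For Cfb they were Asah1 (0.040), the acid ceramidase gene, and Mageh1. C4b lay nearest to the collagen gene Col6a2 (0.063) and to Cyp21a1 (0.065). C1qc was among the 2 nearest to C6 (0.061), and C5ar1 lay nearest to Ifitm1 (0.091) and C1qb (0.12). C7 had no such close profile, with Sfrp2, among its 2 nearest, at 0.22. Among the 9 themselves the nearest pair was C1ra and C1s1 (0.067), and C7 lay farthest from its nearest, C4b (0.39).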

How the data were processed

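RNA was measured in 7 mouse spleen libraries. Spleen RNA was taken up in TRIzol, per the labels' protocols. Among the tools in the submitters' processing notes are HISAT2 and HTSeq, with build mm10 and no stated roles. The table deposited by the authors held 1 value per gene and library, with no unit named in the header. The values the authors deposited were read as FPKM, because after scaling by depth a gene's values are whole multiples of a step that differs between genes. Whole reads (the smallest whole numbers in the ratio of a gene's depth-scaled values, within 0.05 of a read) could be had for the 16889 genes with values above 0 in 2 or more libraries, and 29543961 to 37142218 per library set the precision of low genes such as C7.

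The test was limma 3.58.1 in R 4.3.3, with trend and robust variance, on log2(FPKM + 1), with Benjamini-Hochberg adjustment over the 11920 genes with a mean of at least 1 FPKM, and 10253 were left out. On simulated data for these genes it found 89% of the 2-fold changes and 100% of the 4-fold ones, with 9 false among 198 calls. Smaller changes, such as those of C3, Cfb, C1s1 and C1ra, and differences in library makeup were not simulated, so these rates do not cover them. Single values were compared by exact permutation over 35 splits. Libraries are not stated to come from separate animals, so p-values measure the spread between libraries, which may be technical. The 9 genes, the lists and the rule for named genes (the 9, every called gene of the complement lists, paralogs and partners, and the 2 nearest profiles for each) were chosen with earlier results of these data known. Some genes that this rule names are not reported here. Coordinates are RefSeq's, on GRCm38.p6 (mm10), and overlaps and shared windows come from GENCODE M21. Alternatives were other pseudocounts, filters, scalings, variance settings, voom on recovered reads, a replicate block and left-out libraries.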

Additional observations from a re-analysis of the deposited data

Results flagged for a closer look

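Cfb was 74.0 FPKM for sHA-X replicate 4, apart from the 59.8 to 62.0 FPKM of the other 3 sHA-X libraries by a gap of 0.849 of the group's range; this is past the 95% critical value of Dixon's test. The summed fibroblast markers were 665.9 FPKM for sHA-X replicate 1, set apart by 0.846 of the range. In sHA-X replicate 2 the summed skeletal muscle markers were 232.9 FPKM (0.988 of the range) and the summed mesothelial markers 43.1 FPKM (0.875). The check was made on 30 genes or lists, and chance sets apart about 1 in 20. The check was made on the sHA-X libraries only, and PBS was not checked. It therefore could not flag the summed pancreatic markers of PBS replicate 2 (981.9 FPKM).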

How the results depend on the processing

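C4b, C6, C7 and C5ar1 were called higher in every fit that tested them, with adjusted p up to 0.020 by limma, and C7 and C5ar1 are under the filter of a mean of 5 FPKM. All 9 genes kept a positive change in every fit. With 1 library left out, 7 to 8 of the 9 were called higher, the one lost being C3, and 8 to 10 of the other complement genes were called higher and 1 to 2 lower. Over all genes these fits called 494 to 1262 higher and 232 to 641 lower. The fewest of both came without PBS replicate 1, and the most without PBS replicate 3. Without both second libraries 5 of the 9 genes were called higher, and over all genes 492 were higher and 329 lower. With the mean 5 FPKM filter, under which fewer genes are tested, 6 other complement genes were called higher. Upper-quartile scaling made 53.5% of all calls higher, against 64.9% with the deposited scaling. With the replicate number as a replicate block, 4 of the 9 genes were called higher, 0 other complement genes lower, and over all genes 276 higher and 72 lower. That fit spends degrees of freedom on the block, and sHA-X replicate 4 has no partner in it. Deviations of same-numbered libraries from their group means had correlations over genes of 0.15, -0.21 and -0.29. Centring within such small groups and the traces of other tissues weigh on these values, so they cannot decide whether the numbers pair the libraries. Depth limits C7, with 6 to 31 reads in PBS.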

Other observations

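Of 41 neighbours within 100 kb of the 9 genes in the table (the 9 left out), 31 were tested. Of these, 5 (16.1%, against 9.30% of all tested genes) were called higher by limma and 26 were not called. The 5 were C1rl, C5ar2, Cyp21a1, Tnxb and Ppt2, named after their values were seen. Cyp21a1, the steroid 21-hydroxylase gene, lies 57446 bases from C4b (chromosome 17, 34801348 to 34804426). It was 0.566, 0.325 and 0.513 FPKM for PBS against 3.16, 3.24, 2.36 and 2.58 FPKM for sHA-X (log2 change 1.38, adjusted p = 0.00042 by limma). Cyp21a1 passed the filter only through its sHA-X values. Tnxb, the tenascin X gene on the other side of C4b, was 7.65 FPKM for PBS against 11.2 FPKM for sHA-X by the mean (adjusted p = 0.014). Stk19, Dxo, Skiv2l and Nelfe, which lie between Cyp21a1 and Cfb, did not pass (adjusted p from 0.080 to 0.76). Around C7, neither Card6 nor Rpl37 passed (log2 changes of -0.22 and -0.20, adjusted p = 0.11 and 0.30), and Prkaa1 did not either.

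Cfd, which encodes the protease that activates factor B, was 5.87, 0.204 and 6.61 FPKM for PBS against 1.39, 30.1, 0.389 and 3.2 FPKM for sHA-X. It was highest in sHA-X replicate 2, where the adipocyte list, which holds Cfd, summed to 100.7 FPKM against 7.74 to 39.0 FPKM elsewhere. The lectin pathway gene Fcna was abundant, at 193.8 ± 20.6 and 244.1 ± 30.2 FPKM (adjusted p = 0.086 by limma), as was the properdin gene Cfp at 141.2 ± 18.1 and 180.4 ± 23.5 FPKM (adjusted p = 0.085), and neither passed.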
